A study of Mus musculus with 6 samples.

Results

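The genes described here encode the cytosolic heat shock chaperones and their main transcription factor: Hspa1a, Hspa1b, Hspa8, Hspa4, Hsph1, Hsp90aa1, Hsp90ab1, Dnaja1, Dnajb1 and Hsf1. They were taken by name, 10 of the 24421 gene rows in a table of FPKM, a unit that corrects fragment counts for the length of the transcript and the size of the library. The table covers regulatory T cells (Treg) of wild-type mice, CD4 lymphocytes that express Foxp3 and restrain immune responses, from spleen and lymph nodes. The cells were activated in culture or not, and 3 groups were each sequenced as 2 libraries with SMART-seq, which copies poly(A) RNA into cDNA and amplifies it by PCR: unstimulated cells, stimulated cells, and cells stimulated with iBP present. The design text names iBP as an inhibitor of H2AK119ub1, the ubiquitin mark that Polycomb repressive complex PRC1 sets on histone H2A. No group received iBP without stimulation, so an effect of iBP itself and an altered response to the stimulus cannot be told apart. The sources used here do not give the stimulus, its length, the iBP dose, the way Treg were isolated or the age of the mice. They also do not say whether replicate libraries stand for different mice. All p-values therefore measure the spread between these libraries, which may be technical.

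Chaperones of the HSP70 family bind unfolded stretches of protein and release them in a cycle driven by ATP. J-domain proteins such as Dnaja1 and Dnajb1 bring clients and trigger ATP hydrolysis, and the nucleotide exchange factors Hsph1 and Hspa4 reset the cycle. HSP90 chaperones take over later folding steps of kinases, steroid receptors and other signalling proteins. In resting cells these chaperones hold the transcription factor HSF1 inactive; protein damage frees it, and it then binds heat shock elements, inverted repeats of the unit nGAAn, in the promoters of heat shock genes. Hspa1a and Hspa1b are the strongly inducible HSP70 genes of the mouse, while Hspa8 and Hsp90ab1 are expressed constitutively.

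The member genes that stood highest with iBP relative to the other libraries, Hspa1a and Hspa1b, are near copies of each other, so their promoters are printed first. On GRCm38 (mm10), Hspa1a lies at chr17:34969190-34972156 and Hspa1b at chr17:34956436-34959238, both on the minus strand and each with 1 exon, 9951 bases apart. The 250 bases before the RefSeq start site of each gene (table build GRCm38.p6) are given 5′ to 3′, at chr17:34972157-34972406 for Hspa1a and chr17:34959239-34959488 for Hspa1b. Capitals mark the only match to a pair of facing heat shock units, GAANNTTC or TTCNNGAA, in each window. These motifs read the same on both strands.
Hspa1a: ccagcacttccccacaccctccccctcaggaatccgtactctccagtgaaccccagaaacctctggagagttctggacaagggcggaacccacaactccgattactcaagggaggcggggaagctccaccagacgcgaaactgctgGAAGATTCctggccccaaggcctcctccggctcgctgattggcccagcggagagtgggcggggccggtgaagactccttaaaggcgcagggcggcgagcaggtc
Hspa1b: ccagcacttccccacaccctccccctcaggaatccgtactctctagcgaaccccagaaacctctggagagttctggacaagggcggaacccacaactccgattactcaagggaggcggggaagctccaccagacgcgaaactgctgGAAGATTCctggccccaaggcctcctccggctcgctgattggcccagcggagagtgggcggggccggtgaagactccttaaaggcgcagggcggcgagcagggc
Of these 250 bases 247 were identical. Counted from 1 at the 5′ end of the window, with the Hspa1a base first, the differences were C44T, T47C and T249G. The match began 104 bases before the start site in both, outside the bases that differ.

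The RefSeq promoter table held 6 of the 10 genes, and 4 of the 6 had a facing pair before at least 1 listed start. Beside Hspa1a and Hspa1b these were Hsph1, at 1 site that lies in the windows of both its 2 starts, and Dnaja1, before 1 of 3. They are shown as 30 bases around the match, at chr5:149636351-149636380 (minus strand) and chr4:40722333-40722362 (plus strand), because their values with iBP differed less from the stimulated libraries than those of Hspa1a and Hspa1b.
Hsph1: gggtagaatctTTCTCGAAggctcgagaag
Dnaja1: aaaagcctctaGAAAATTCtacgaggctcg
Hspa4 and Dnajb1 had no match in the windows of this table. Such a pair is common: 12.8% of all 32851 windows of 250 bases held one, and 3932 of 27025 genes (14.55%) had one before at least 1 start. The longer form with 3 units, GAANNTTCNNGAA or TTCNNGAANNTTC, which contains the pair, was found in 0.466% of windows and before 0 of the 6 genes. A match describes letters in the window and is not evidence of binding.

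All 10 genes were well above the filter on low values (2 or more libraries reaching 1 FPKM), and each read at least 5 FPKM in every library. Hspa8 was the most abundant, between 1265 and 1353 FPKM, and ranked 27 by mean level among all genes of the table. Hsp90ab1 at a mean of 678 and Hsp90aa1 at 651 came next, and their libraries overlapped, so their order was not resolved. Hspa1a followed at a mean of 98.4 FPKM, then Dnajb1 at 92.8, Dnaja1 at 83.0 and Hspa4 at 81.1, again with overlapping libraries. The place of Hspa1a rests on its iBP mean of 133 FPKM. In unstimulated and stimulated libraries Hspa1a averaged 79.8 and 82.2 FPKM, below Dnajb1 (99.0 and 88.0) and Dnaja1 (87.6 and 84.6). Hsph1 averaged 42.7, Hsf1 35.4 and Hspa1b 27.9 FPKM. FPKM is scaled to transcript length. Levels of different genes also depend on how reads of shared sequence were assigned, which the sources used here do not give. The order of the genes is therefore approximate. Summed over the 10 genes, the level was 3027 and 3086 FPKM in unstimulated, 2990 and 3013 in stimulated and 3173 and 3299 in iBP libraries.

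**Figure D1:**
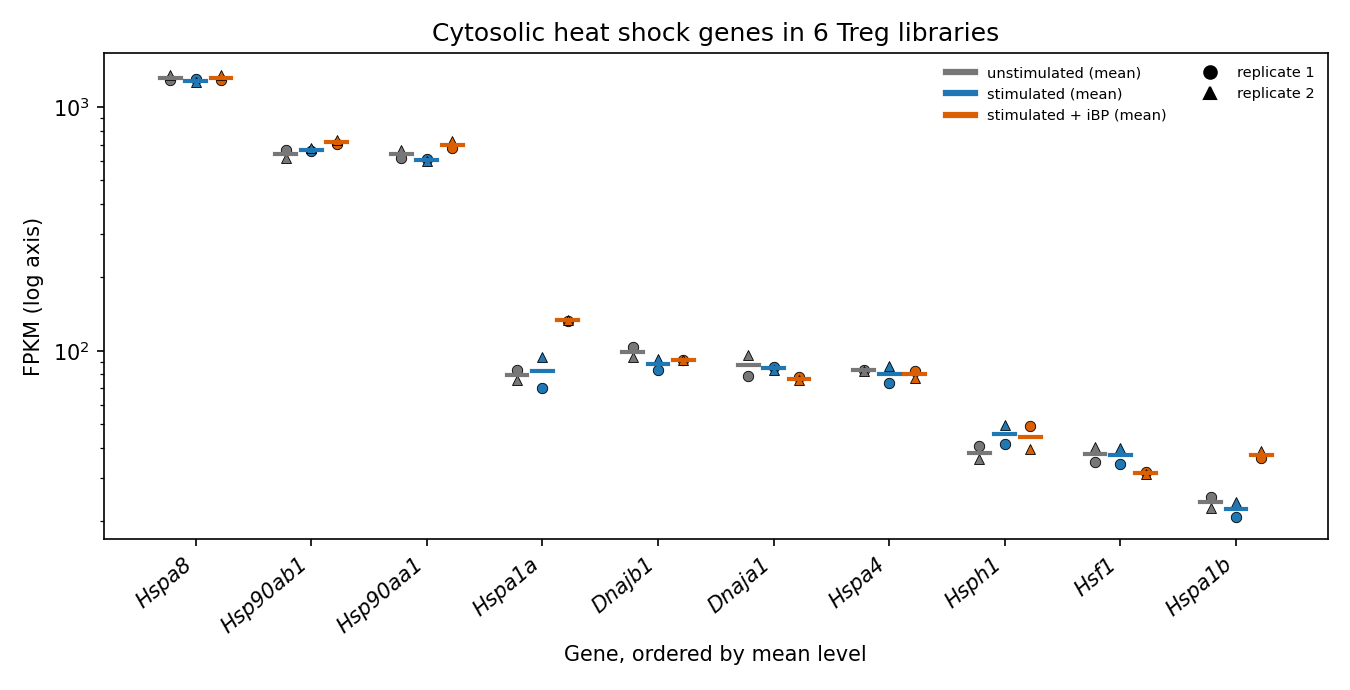
FPKM (log axis) of the 10 genes in the 6 libraries, ordered by mean level; circles and triangles are replicates 1 and 2 and bars are group means. Hspa1a and Hspa1b have both iBP libraries above the other 4, whereas Hspa8 lies between 1265 and 1353 FPKM in every library.

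The inducible HSP70 genes had their highest values with iBP. Hspa1a read 83.6 and 76.1 FPKM in unstimulated libraries, 70.5 and 93.8 in stimulated ones, and 132 and 134 with iBP. Hspa1b read 25.2 and 22.5, then 20.7 and 24.0, and 36.1 and 38.7 with iBP. For each gene both iBP libraries were above all 4 libraries without iBP, and the unstimulated and stimulated libraries overlapped.

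Compared with the stimulated libraries, the fitted log2 difference with iBP was 0.70 ± 0.15 (SE; 95% interval 0.38 to 1.03) for Hspa1a and 0.72 ± 0.16 (0.36 to 1.08) for Hspa1b, fold changes of 1.63 and 1.65 on the scale of FPKM + 1. Neither passed once limma's p-values were adjusted over 10436 genes (unadjusted p = 0.000524 and 0.00102; adjusted p = 0.683 and 0.774). These were the 8th and 11th smallest p-values of the comparison. Of the 10 members 0 passed and 2 had an unadjusted p under 0.05. In the same comparison 0.00958% of tested genes passed, a single gene (Dnajb11), and 498 of 10436 had an unadjusted p under 0.05. Among 3018 tested genes with a mean of at least 20 FPKM, a level chosen after the values were seen, 5 had a larger positive difference than Hspa1a and 3 a larger one than Hspa1b. Leaving out stimulated replicate 1 gave 0.50 for Hspa1a and leaving out stimulated replicate 2 gave 0.91, the ends of its range over 16 alternatives. For Hspa1b the same libraries set the range, 0.62 to 0.82.

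Compared with the unstimulated libraries, Hspa1a rose with iBP by 0.73 ± 0.15 (log2, SE; 95% interval 0.41 to 1.06; adjusted p = 0.0299). Hspa1b, at 0.63 ± 0.16 (0.27 to 0.99), did not pass (adjusted p = 0.0943). So 1 of 10 members passed, against 1.75% of all tested genes. The Hspa1a call ended in 7 of 16 alternatives. Among these were the fits without unstimulated replicate 1 (adjusted p = 0.0815), unstimulated replicate 2 (0.0990) or either iBP library (0.214 without replicate 1, 0.227 without replicate 2). Others were those without the variance trend (0.277) or the filter on low values (0.228). The difference stayed between 0.66 and 0.80. Both comparisons with iBP use the same iBP libraries and are not independent of each other. In stimulated against unstimulated libraries the differences were 0.03 ± 0.15 for Hspa1a (adjusted p = 0.976) and −0.09 ± 0.16 for Hspa1b (0.913).

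Reads of these genes can be hard to assign. The transcripts Hspa1a-201 and Hspa1b-201 were identical at 91.4% of 2729 aligned bases, and 58.8% of the 50-base words of the first and 62.3% of those of the second occur in the other. The sources used here do not give the treatment of multi-mapped reads, so the split between the genes is uncertain. The ratio of Hspa1a to Hspa1b FPKM was between 3.32 and 3.90 in the 6 libraries. Added together, the genes read 109 and 98.6 FPKM in unstimulated, 91.3 and 118 in stimulated and 169 and 173 in iBP libraries. Tested as 1 row, the sum differed by 0.71 ± 0.14 between iBP and stimulated libraries (unadjusted p = 0.000303, adjusted p = 0.515) and rose by 0.71 between iBP and unstimulated ones (adjusted p = 0.0260).

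**Figure D2:**
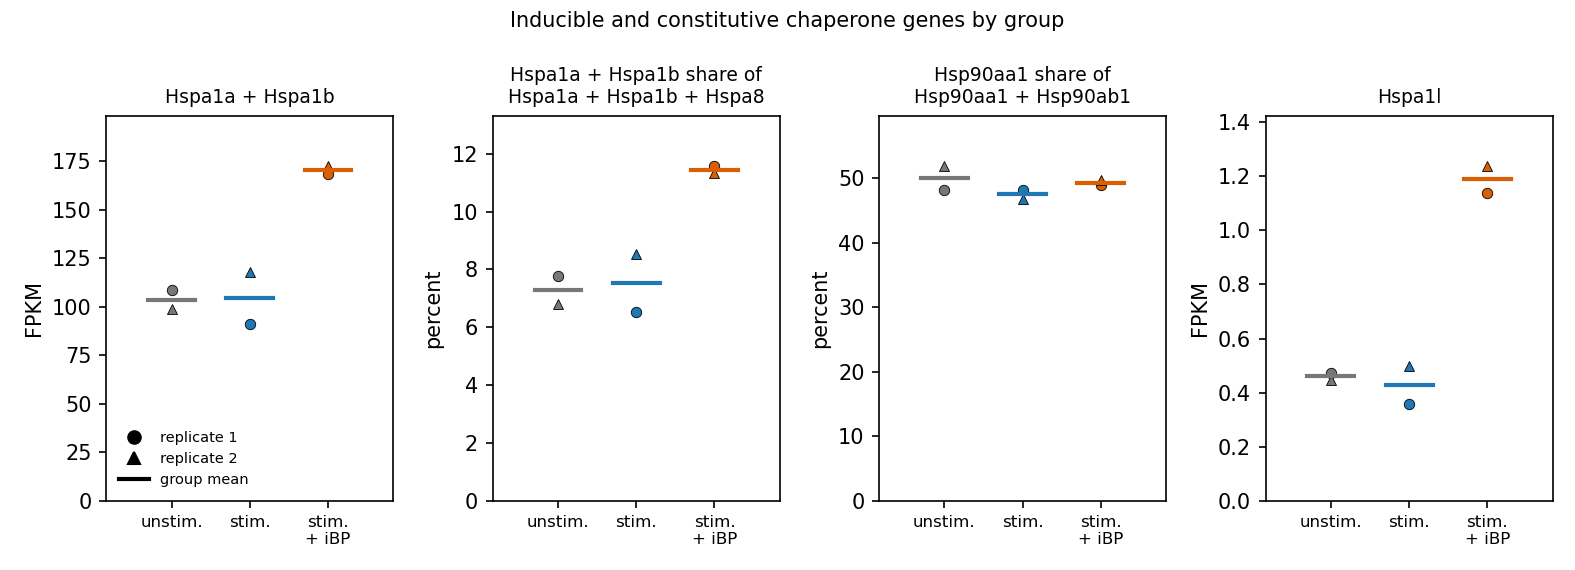
Values by library on axes starting at 0: summed FPKM of Hspa1a and Hspa1b, their percent of the sum with Hspa8, the percent of Hsp90aa1 within Hsp90aa1 plus Hsp90ab1, and FPKM of the neighbouring gene Hspa1l. Points are libraries and bars are group means; the iBP libraries lie above the others in the panels of the HSP70 sum, the HSP70 share and Hspa1l, and lie within the unstimulated range in the HSP90 share.

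Hspa8, the constitutive cytosolic HSP70, was nearly level. It read 1289 and 1353 FPKM in unstimulated, 1306 and 1265 in stimulated and 1288 and 1350 in iBP libraries, and the 3 groups overlapped. With iBP it differed from the stimulated libraries by 0.04 ± 0.10 (log2, SE; 95% interval −0.17 to 0.25; adjusted p = 0.998). The inducible genes thus made up more of the HSP70 signal with iBP: Hspa1a and Hspa1b were 11.6% and 11.3% of the sum of Hspa1a, Hspa1b and Hspa8 there, against 6.53% and 8.52% in stimulated and 7.78% and 6.79% in unstimulated libraries. The share is a description and was not tested. An exact two-sided permutation test of 2 against 2 libraries cannot give a p below 0.333. Reads of Hspa8 are also hard to assign: 74.8% of the 50-base words of its transcript occur in transcripts of other genes, 70.0% in Gm15459 alone.

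The nucleotide exchange factors did not pass the test in any comparison. Hspa4 read 83.5 and 82.9 FPKM in unstimulated, 73.5 and 86.5 in stimulated and 82.9 and 77.6 in iBP libraries. Its difference between iBP and stimulated libraries was 0.01 ± 0.13 (95% interval −0.28 to 0.30; unadjusted p = 0.955), and these libraries overlapped. Both iBP libraries were below both unstimulated ones, though only just (82.88 against 82.90 FPKM at the nearest). Hsph1, which is itself heat-inducible, read 40.6 and 35.8 in unstimulated, 41.6 and 49.7 in stimulated and 49.1 and 39.7 in iBP libraries. Both stimulated libraries were above both unstimulated ones, by 0.25 ± 0.16 in the fit (adjusted p = 0.661), and the iBP libraries overlapped those of the stimulated group. Between iBP and stimulated libraries Hsph1 differed by −0.04 ± 0.16 (95% interval −0.40 to 0.32; adjusted p = 0.998), a sign that turned under quantile normalization (0.0073).

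The HSP90 genes had their highest values with iBP as well, by a smaller margin. Hsp90aa1, the stress-inducible form, read 620 and 667 FPKM in unstimulated, 615 and 598 in stimulated and 677 and 727 in iBP libraries. Its difference between iBP and stimulated libraries was 0.21 ± 0.10 (95% interval −0.01 to 0.43; unadjusted p = 0.0619, adjusted p = 0.998). Hsp90ab1, the constitutive form, read 668 and 618, then 659 and 681, and 706 and 734 with iBP, a difference of 0.10 ± 0.10 (−0.11 to 0.32; adjusted p = 0.998) from the stimulated libraries. For both genes the iBP libraries did not overlap the other 4, though the gap was narrow: 677 against 667 for Hsp90aa1 and 706 against 681 for Hsp90ab1. Both stimulated libraries were narrowly below both unstimulated ones for Hsp90aa1, which differed by −0.08 ± 0.10 (adjusted p = 0.856) and Hsp90ab1 by 0.06 ± 0.10 (0.906), the latter at −0.05 under quantile normalization. The inducible form took 48.1% and 51.9% of the HSP90 sum in unstimulated, 48.3% and 46.8% in stimulated and 48.9% and 49.8% in iBP libraries, so the iBP libraries were above the stimulated ones but within the unstimulated range. Of the 50-base words of the Hsp90aa1 transcript 58.5% occur in other genes, against 4.49% for Hsp90ab1.

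In all, 4 of 10 members (Hspa1a, Hspa1b, Hsp90aa1 and Hsp90ab1) had both iBP libraries above both stimulated ones, where 13.6% of tested genes did. Hspa1a and Hspa1b share most of their sequence and are not independent of each other in this count. In the other direction 2 of 10 (Dnaja1 and Hsf1) had both iBP libraries below both stimulated ones, against 21.0% of tested genes. Hspa1a, Hspa1b, Hsp90aa1 and Hsp90ab1 also had both iBP libraries above the other 4, against 5.49% of tested genes. Against the unstimulated libraries alone, both iBP libraries were higher for 4 of 10 members, where 18.1% of tested genes were. They were lower for 4 of 10 (Hspa4, Dnaja1, Dnajb1 and Hsf1), against 23.9% of tested genes. Summed FPKM of all genes was 366044 and 366722 in the iBP libraries and between 374088 and 381302 in the others, and the median difference of all tested genes between iBP and stimulated libraries was −0.03.

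The J-domain genes did not pass the test in any comparison either. Dnajb1, the main heat-inducible partner of HSP70, read 104 and 94.3 FPKM in unstimulated, 83.6 and 92.4 in stimulated and 91.4 and 91.6 in iBP libraries. Both stimulated libraries were below both unstimulated ones (−0.17 ± 0.13, adjusted p = 0.704), and the iBP libraries lay within the stimulated range (0.06 ± 0.13, 95% interval −0.22 to 0.33, adjusted p = 0.998). Dnaja1 read 79.0 and 96.2 FPKM in unstimulated, 86.1 and 83.1 in stimulated and 77.8 and 75.8 in iBP libraries, where it was lowest. The difference between iBP and stimulated libraries was −0.14 ± 0.14 (−0.43 to 0.16; adjusted p = 0.998).

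Hsf1, the regulator of the family, lies at chr15:76477422-76501913 on the plus strand. It read 34.9 and 40.3 FPKM in unstimulated, 34.4 and 40.0 in stimulated and 31.8 and 31.1 in iBP libraries. Both iBP libraries were below the other 4, with a difference of −0.23 ± 0.16 from the stimulated libraries (95% interval −0.58 to 0.11; adjusted p = 0.998) and −0.25 ± 0.16 from the unstimulated ones (adjusted p = 0.583). These are transcript levels; HSF1 activity, which depends on its release from chaperones and on trimerization, was not measured.

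**Figure D3:**
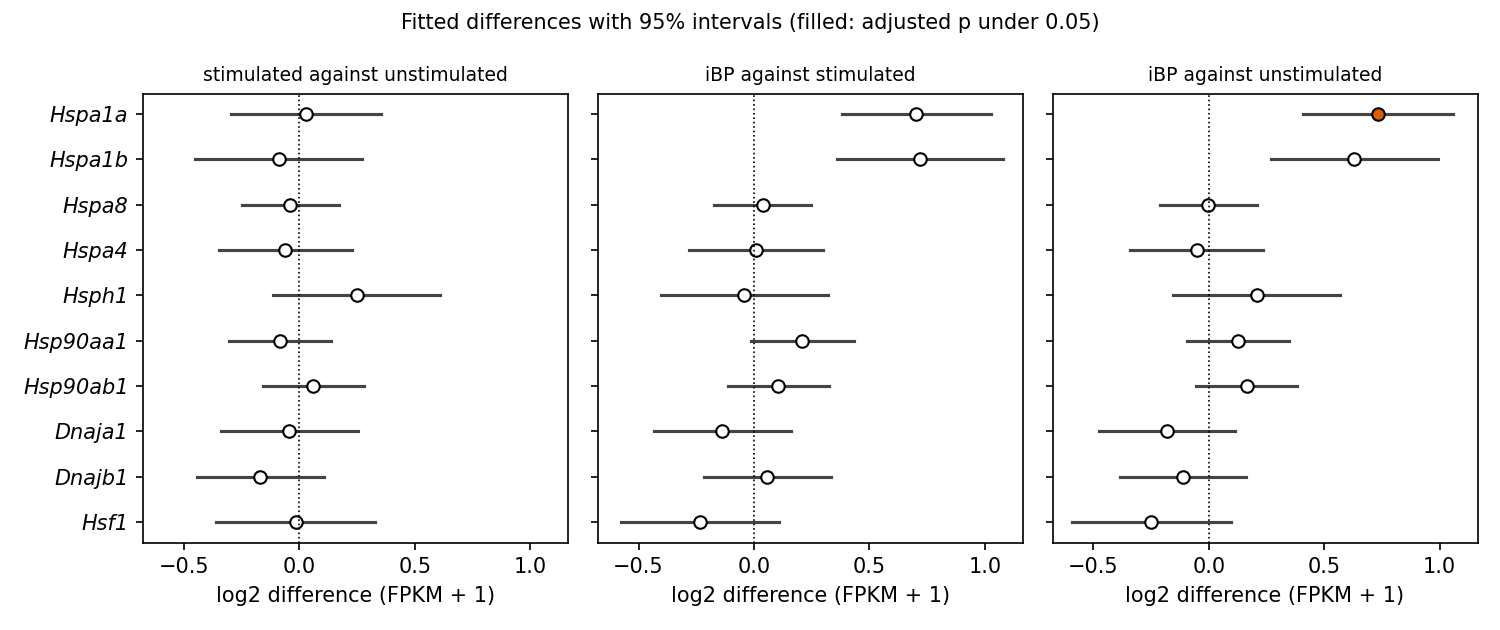
Fitted log2 differences (scale of FPKM + 1) of the 10 genes in the 3 comparisons with 95% intervals, filled where the adjusted p is under 0.05. The intervals of Hspa1a and Hspa1b lie above 0 in both comparisons with iBP (0.38 to 1.03 and 0.36 to 1.08 against stimulated), only Hspa1a against unstimulated is filled, and all 10 intervals of stimulated against unstimulated include 0.

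With stimulation alone no member passed the test. Of 10 members 0 passed the limma test between stimulated and unstimulated libraries, against 1.29% of tested genes. At an unadjusted limma p under 0.05 there were 0 members, against 1129 of 10436 tested genes. The median difference of the 10 was −0.04, with 3 positive, and that of all tested genes was −0.0024. The fitted differences went from −0.17 for Dnajb1 to 0.25 for Hsph1, and the 95% intervals together spanned −0.45 to 0.61. Between iBP and stimulated libraries the median of the 10 was 0.05 with 7 positive. The 8 members other than Hspa1a and Hspa1b had a median of 0.02, and none of their unadjusted 95% intervals reached above 0.43, the upper end for Hsp90aa1. The interval of Hspa1a (0.38 to 1.03) overlaps the highest of these, and the difference between the genes was not tested.

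**Figure D4:**
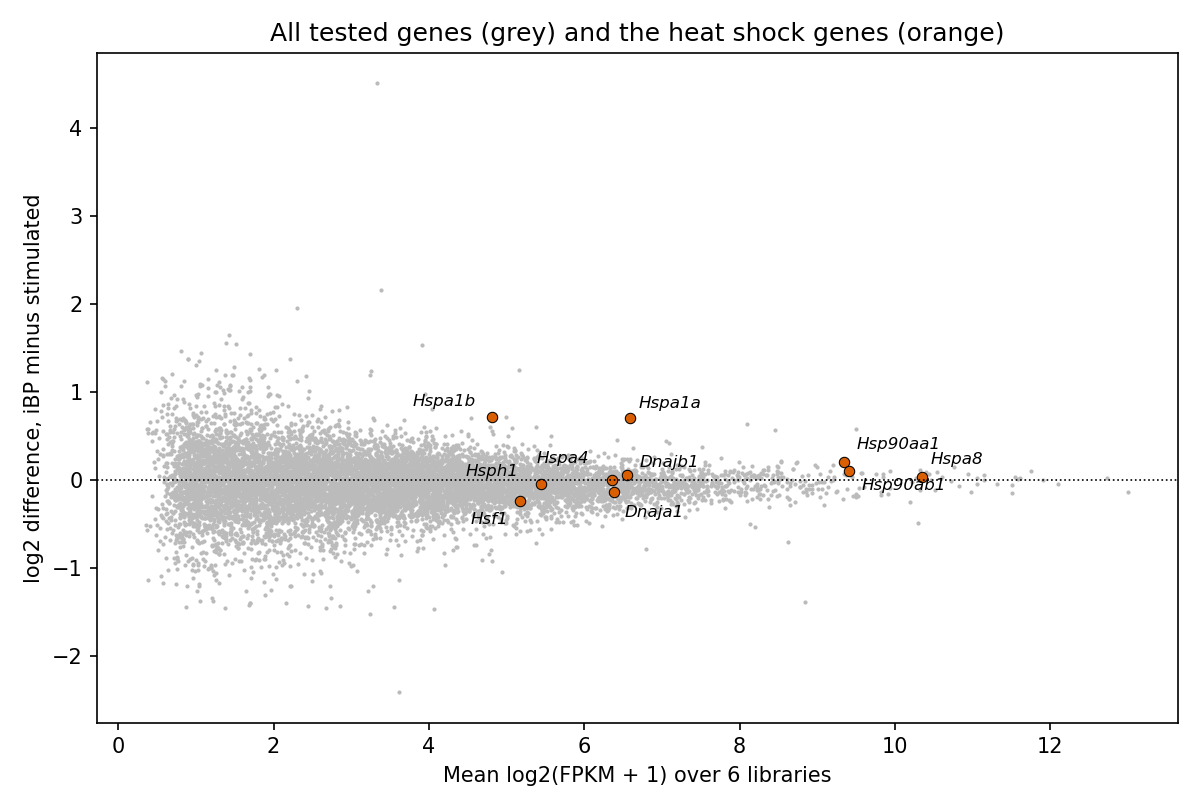
Mean level over the 6 libraries (log2 of FPKM + 1) against the log2 difference of iBP minus stimulated for the 10436 tested genes (grey) and the 10 members (orange). Hspa1a (0.70) and Hspa1b (0.72) stand at the upper edge of genes of like level, and the other members lie between −0.23 and 0.21.

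The genes beside the inducible HSP70 genes were examined because the locus is compact. Hspa1l, a testis-enriched HSP70 gene on the opposite strand whose annotated start lies 546 bases from that of Hspa1a, at chr17:34972703-34979285, read 0.474 and 0.446 FPKM in unstimulated, 0.359 and 0.499 in stimulated and 1.14 and 1.24 in iBP libraries. It passed the filter only through the iBP libraries, so the lack of overlap is in part built into its selection. The fitted difference between iBP and stimulated libraries was 0.62 ± 0.36 (adjusted p = 0.998). The sources used here do not give the strand of the libraries. Of the 50-base words of the Hspa1l transcript 71.4% also occur in Gm10501 and 9.58% in Hspa1a, so reads of these genes may be mixed. Within 50 kb on either side, Neu1, 1110038B12Rik, Ehmt2 and Vars overlapped between iBP and stimulated libraries. Lsm2, which encodes an RNA-binding Sm-like protein, read 11.6 and 14.7 FPKM with iBP, below 16.6 and 16.2 in stimulated libraries. Its unstimulated libraries read 14.1 and 14.6. The small nucleolar RNA gene Snord52, which lies within 1110038B12Rik, read 2.51 and 2.46 with iBP, above 2.39 and 1.98 in stimulated libraries. In unstimulated libraries it read 2.92 and 4.34.

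Across the 6 libraries Hspa1a and Hspa1b had a Pearson r of 0.98, the highest of any of the 10435 other tested genes with Hspa1a, a value into which the shared sequence enters. With Hspa1a, Hsp90ab1 stood at 0.88, Hsp90aa1 at 0.69, Hsph1 at 0.41, Dnajb1 at 0.04, Hspa8 at 0.03, Hsf1 at −0.66 and Dnaja1 at −0.75. The median over all 45 pairs of members, which are not independent of each other, was 0.03, with 23 pairs above 0. In these 6 libraries the r values thus showed no pattern shared by all 10 genes. Against the mean of the members, the genes outside the family with the highest r, among those with a mean of at least 5 FPKM, were Sp1 (0.98), Ero1lb (0.96), Notch1 (0.95), Fundc2 (0.95) and Trpm7 (0.94). With 6 libraries and over 10436 genes, such values are a description only.

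The wider chaperone network was described with lists of related genes. Among partners of HSP70 and J-domain proteins, 26 of 28 were tested and 0 passed limma's adjusted test in any of the 3 comparisons. At an unadjusted p under 0.05 there were 0 with stimulation, 0 with iBP against stimulated and 1 with iBP against unstimulated libraries. Of the 10436 tested genes 1129, 498 and 1278 were under this p in the same order. The same background applies to the counts of the lists below. The median of the HSP70 partners was 0.06 between iBP and stimulated libraries. Bag3, a co-chaperone that is a classical HSF1 target, read 0.408 and 1.13 FPKM in unstimulated, 2.03 and 1.74 in stimulated and 0.767 and 1.32 in iBP libraries. It was thus lower with iBP than in the stimulated libraries (−0.51 ± 0.37, adjusted p = 0.998), a sign opposite to that of Hspa1a. Bag3 differed by 0.73 ± 0.37 between stimulated and unstimulated libraries (adjusted p = 0.523). Between iBP and unstimulated libraries, which overlapped, it differed by 0.22, the same sign as Hspa1a. All of these Bag3 values are near the filter. Dnajb2, a J-domain gene, differed by −0.55 ± 0.29 between stimulated and unstimulated libraries (adjusted p = 0.540).

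Of 24 HSP90 partners all were tested with limma and 0 passed in any comparison, with 2, 1 and 4 at an unadjusted p under 0.05 in the same order. The median was −0.01 between iBP and stimulated libraries. Fnip1, a co-chaperone of the folliculin pathway, read 13.2 and 13.7 FPKM in unstimulated, 18.8 and 24.0 in stimulated and 30.1 and 22.4 in iBP libraries, and missed the threshold between iBP and unstimulated ones (0.90 ± 0.20, adjusted p = 0.0508). Ruvbl2, an ATPase of the R2TP complex, differed by 0.56 ± 0.21 between stimulated and unstimulated libraries (adjusted p = 0.324), and Ppp5c, a phosphatase bound to HSP90, by 0.41 ± 0.20 (0.504).

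Of 9 small heat shock proteins and disaggregation factors 5 were tested and 0 passed limma's test in any comparison (1, 0 and 1 at an unadjusted p under 0.05). The small heat shock genes were low, and Hspb2, Hspb7, Hspb8 and Cryab fell below the filter. The disaggregation gene Vcp, named after its values were seen, was abundant, between 226 and 258 FPKM. Hspb1, the small chaperone HSP27, read 5.03 and 5.11 FPKM in unstimulated, 3.42 and 3.77 in stimulated and 5.58 and 5.98 in iBP libraries. Both iBP libraries were above the other 4 and both stimulated ones below, with a difference of 0.56 ± 0.26 between iBP and stimulated libraries (unadjusted p = 0.0548, adjusted p = 0.998). Hspb6 read 0.737 and 1.10 FPKM in unstimulated, 2.93 and 1.67 in stimulated and 2.48 and 2.27 in iBP libraries. It differed by 0.76 ± 0.35 with stimulation (unadjusted p = 0.0494, adjusted p = 0.458), by 0.82 between iBP and unstimulated libraries (adjusted p = 0.357) and by 0.06 between iBP and stimulated ones. Clpb differed by 0.35 ± 0.25 between iBP and stimulated libraries (adjusted p = 0.998).

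Of 10 heat shock factors and regulators 8 were tested and 0 passed limma's test in any comparison (0, 2 and 1 at an unadjusted p under 0.05). Their median was −0.22 between iBP and stimulated libraries, with 2 positive, against −0.03 for all tested genes. The largest differences were those of Hsf2bp, which encodes a binding partner of HSF2, at −0.90 ± 0.38 (listed at 0 in iBP replicate 1 and at 0.641 FPKM in replicate 2), and Plk1, a mitotic kinase, at −0.71 ± 0.37, both at low levels. Tpr, a nuclear pore gene named after its values were seen, was next at −0.42 ± 0.15 and had the smallest p of the list (unadjusted p = 0.0154). It read 49.5 and 53.2 FPKM in unstimulated, 46.1 and 48.1 in stimulated and 32.4 and 37.8 in iBP libraries, with both iBP libraries below the other 4. Sirt1, a deacetylase of HSF1, differed by −0.31 ± 0.30. All of these had an adjusted p of 0.998. With stimulation Sirt1 differed by 0.62 ± 0.30 (adjusted p = 0.489).

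The chaperonin TRiC and prefoldin, which fold actin and tubulin, had 0 of 14 genes past limma's test in any comparison (1, 0 and 1 at an unadjusted p under 0.05). Between iBP and stimulated libraries 2 were positive and the median was −0.05. Pfdn4 differed by 0.31 ± 0.19, Pfdn6 by −0.09 and Pfdn2 by −0.04. With stimulation Pfdn4 differed by −0.43 ± 0.19 (adjusted p = 0.439), Pfdn6 by −0.25 and Pfdn2 by 0.24. Pfdn4 differed by −0.12 between iBP and unstimulated libraries. The mitochondrial chaperones had 0 of 11 past limma's test in any comparison (1, 0 and 0 at an unadjusted p under 0.05). Hspd1, which encodes HSP60, read 184 and 198 FPKM in unstimulated, 215 and 275 in stimulated and 216 and 197 in iBP libraries. With stimulation it differed by 0.35 ± 0.13 (adjusted p = 0.340). Lonp1, a protease, differed by −0.35 ± 0.30 and Hscb, an iron-sulfur cluster co-chaperone, by 0.04 ± 0.24 between iBP and stimulated libraries. With stimulation Hscb differed by −0.41 ± 0.24 (adjusted p = 0.588) and Lonp1 by 0.25 ± 0.30.

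Among chaperones of the endoplasmic reticulum some genes passed. Of 17 genes 1 rose (Pdia4, a disulfide isomerase) and 1 fell (Dnajb11, a partner of the ER HSP70) with stimulation, where 1.29% of all tested genes passed in either direction. Pdia4 was also the 1 gene of the list past the test between iBP and unstimulated libraries (1.18 ± 0.13, adjusted p = 0.000878), where 1.75% passed. Dnajb11 rose with iBP against stimulated libraries, by 2.17 ± 0.23 (adjusted p = 0.00813). Dnajb11 read 21.0 and 16.9 FPKM in unstimulated, 2.69 and 2.44 in stimulated and 16.1 and 14.0 in iBP libraries, so the stimulated libraries were the low ones. Pdia4 read 47.4 and 43.5, then 109 and 101, and 97.7 and 110. The median of the ER list in that comparison was −0.01. The call of Dnajb11 ended when either stimulated library was left out, and also when low genes were kept or the variance was fitted with no trend. In each of these fits 0 genes passed.

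**Figure D5:**
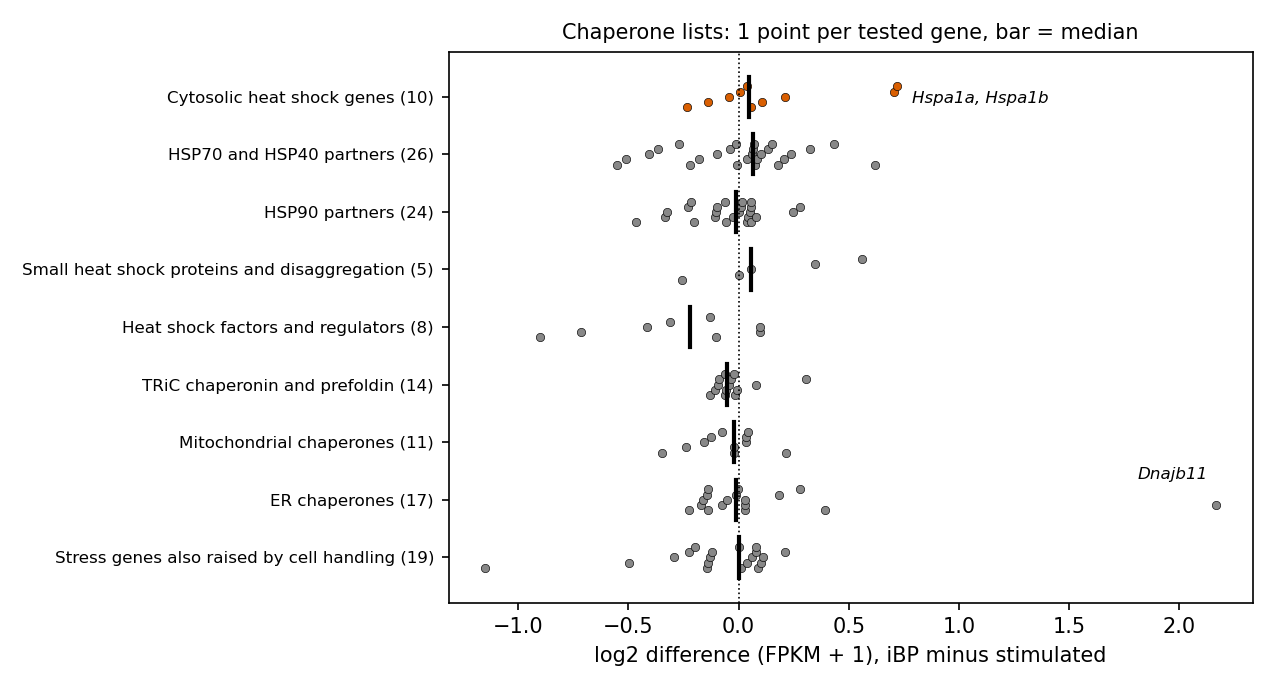
Log2 difference of iBP minus stimulated for each tested gene of the cytosolic family and of 8 related lists (number of genes in brackets); the bar is the median. Medians lie between −0.22 and 0.06, and Hspa1a (0.70), Hspa1b (0.72) and the ER gene Dnajb11 (2.17) stand to the right of their lists.

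HSP70 genes are also among those that respond to cell handling, so genes of that kind were set beside them. Of 19 such genes 1 rose (Jun) and 1 fell (Dusp1) with stimulation, against 1.29% of all tested genes. Between iBP and unstimulated libraries 1 rose (Jun) and 2 fell (Dusp1 and Ier2), against 1.75%. By limma 0 passed between iBP and stimulated libraries, where 10 were positive and 2 had an unadjusted p under 0.05. Jun, an AP-1 subunit, read 136 and 160 FPKM in unstimulated, 298 and 300 in stimulated and 306 and 332 in iBP libraries. Dusp1, a MAP kinase phosphatase, read 534 and 479, then 282 and 314, and 282 and 263. The genes of this list with an unadjusted p under 0.05 between iBP and stimulated libraries were Ier2 and Hmox1, named after their values were seen, and both were lower with iBP. Ier2, an immediate early gene, read 370 and 364 FPKM in unstimulated, 345 and 243 in stimulated and 207 and 203 in iBP libraries (−0.50 ± 0.15, adjusted p = 0.998). Hmox1, which encodes heme oxygenase, read 2.70 and 9.55, then 7.46 and 6.59, and 1.68 and 3.87 (−1.15 ± 0.45, adjusted p = 0.998). The part of handling in the Hspa1a and Hspa1b values was not tested.

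Foxp3, the defining Treg factor, read 35.5 to 47.1 FPKM in unstimulated, 101 to 121 in stimulated and 122 to 124 in iBP libraries, and T-cell markers summed to 377 to 411 FPKM, so the defining Treg marker was present. B-cell markers were also abundant: Cd79a, Cd79b and Ms4a1 alone summed to 684 and 665 FPKM in unstimulated, 696 and 643 in stimulated and 554 and 594 in iBP libraries, above the T-cell sum in every library. Cd79b, a B-cell receptor component, read 329 and 314 FPKM in unstimulated, 336 and 340 in stimulated and 222 and 244 in iBP libraries. Both iBP libraries were below the other 4 (−0.54 ± 0.11 against stimulated, adjusted p = 0.600), while Cd79a and Ms4a1 differed by 0.07 and −0.05 (log2) from the stimulated libraries. Erythroid markers summed to 629 and 293 FPKM with iBP and 635 to 750 in the others. The low sum of iBP replicate 2 came from Hba-a2, which read 570 FPKM in iBP replicate 1 and 120 in replicate 2. In the same order Hba-a1 read 9.29 and 123, Hbb-bt 21.3 and 25.8 and Hbb-bs 28.5 and 24.0, so the rows did not fall together. Myeloid markers summed to 66.9 and 100 with iBP and 66.8 to 83.8 in the others, nearly all of it Lyz2 (65.5 and 99.5 FPKM with iBP). Pancreatic acinar markers summed to 89.3 FPKM in stimulated replicate 2 and to 17.0 to 35.3 in the other libraries. The remaining lists (CD8, dendritic, NK and stromal cells) summed to at most 26.9 FPKM. In these bulk libraries fewer cells of a type and less RNA per cell cannot be told apart, and the part of other cells in the chaperone values was not tested.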

How the data were processed

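Polyadenylated RNA of 6 wild-type Treg libraries, 2 per group, was measured by SMART-seq. The authors deposited FPKM values; the submitters' processing notes name HISAT2 2.2.1, StringTie 2.1.1 and mm10. The sources used here do not give the annotation, strand, filters or the treatment of multi-mapped reads. Read depth is unknown, so no counting error is given. Kdm2b conditional knockout cells, which the design text mentions, are not analysed here.

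Values were tested as log2(FPKM + 1) with limma 3.58.1 (R 4.3.3) on 10436 genes that reached 1 FPKM in 2 or more libraries: 3 group means over all 6 libraries, moderated variances with a trend (3 residual and 8.52 prior degrees of freedom), two-sided, Benjamini-Hochberg adjustment over all tested genes, threshold 0.05. Errors of differences are standard errors. Fold changes on this scale understate those of low genes. The fit was tested on simulated data. The members, the 8 related lists and the markers were chosen with earlier results of these data known, and support nothing by themselves. One of the markers is not reported here. From each list the genes named are those past the test in stimulated against unstimulated or iBP against stimulated libraries, or else up to 3 with the largest difference in either, and 5 genes are named for likeness to the mean of the members. Coordinates and transcripts are from GENCODE M21 (GRCm38) and promoters from RefSeq; 50-base words of the longest coding transcript were compared with all other genes' transcripts on both strands with Python 3.11.15, Biopython 1.88 and matplotlib 3.10.9. Alternatives were another pseudocount, other filters, 3 rescalings, other variance settings, a replicate term, only the groups compared, and each library left out; summing Hspa1a and Hspa1b was added after the data were seen.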

Additional observations from a re-analysis of the deposited data

How the results depend on the processing

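Of the members, 0 passed in stimulated against unstimulated or in iBP against stimulated libraries under any alternative run. Between iBP and unstimulated libraries 1 passed (Hspa1a); 0 did without the filter on low values, without the variance trend or with the replicate block, and 0 to 1 with 1 library left out, where a group's lone remaining library takes its spread from the others. The titles name each iBP sample after a stimulated one of the same number, but do not say whether equal numbers mark paired samples. Replicate differences correlated at −0.05 to −0.01 between groups. Under the replicate block Hspa1a against unstimulated had an adjusted p of 0.0794, and the genes past the test fell from 183 to 109 there and from 135 to 79 in stimulated against unstimulated. Over the alternatives those counts ran from 9 to 234 and from 12 to 183, and from 0 to 4 between iBP and stimulated libraries. The differences of Hspa1a and Hspa1b with iBP kept their sign in all 16 alternatives of both comparisons. Signs of differences near 0 turned, always short of the test: under quantile normalization Hsp90ab1 with stimulation (−0.0498) and Hsph1 with iBP against stimulated (0.0073), and Hspa8 with iBP against unstimulated after rescaling each library to 1 total (0.0416) or by median of ratios (0.0346). With 1 library left out, the stimulation differences ran from −0.17 to 0.23 for Hspa1a, −0.19 to 0.0134 for Hspa1b, −0.18 to 0.0554 for Hspa4, −0.18 to 0.10 for Dnaja1 and −0.12 to 0.0915 for Hsf1. Those of iBP against stimulated ran from −0.11 to 0.12 for Hspa4, −0.19 to 0.11 for Hsph1 and −0.0135 to 0.13 for Dnajb1, and that of Hspa8 against unstimulated from −0.0371 to 0.0328. The causes were not tested. The share of Hspa1a and Hspa1b with iBP was 11.8% after quantile normalization.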
